A study of Mus musculus with 8 samples.

Results

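A set of 39 genes of blood and lymphatic vessel endothelium, with the secreted factors that act on it, was followed in the parietal bone of mouse pups. The genes were taken from a list of symbols chosen with earlier results of these data known. All 39 symbols were found among the 27133 genes of the count table. Poly(A) RNA came from 8 libraries of parietal bone, a plate of the skull roof, from mice of strain C57BL6J. Both groups were treated transcranially on postnatal days 2, 4 and 6, perfused, and collected on postnatal day 9. The isotype group (libraries 2, 3, 4 and 5) received a control antibody. The anti-CSF1R group (libraries 7, 8, 9 and 10) received an antibody that blocks CSF1R, the receptor that monocytes, macrophages and osteoclasts need for survival, in order to deplete myeloid cells. The labels number the libraries without saying that each is a separate pup, and p-values therefore describe only how far these libraries scatter. The comparison asks whether the vessel transcripts of the skull bone differ after this treatment.

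Endothelial cells line every vessel and hold to each other through junction proteins such as VE-cadherin. Their growth is set by vascular endothelial growth factors (VEGFs), which bind the receptor kinases FLT1, KDR and FLT4, and their stability by angiopoietins, which bind the receptor kinase TIE2 (gene Tek) with its partner TIE1. In growing bone, capillaries rich in endomucin and PECAM1 run close to bone-forming cells, and bone cells are a source of VEGF-A. In bulk RNA, fewer or more endothelial cells and less or more RNA per cell cannot be told apart.

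Promoter sequence was at hand for 20 of the 39 genes (RefSeq, GRCm38.p6). Of the 5 genes that passed a test described below, the 3 with a window are shown, Angpt4 (a ligand of TIE2), Emcn (endomucin) and Flt4 (VEGF receptor 3), each as the 250 bases before the annotated start, 5′ to 3′ on the gene's strand. Capitals mark AGGAAG or CGGAAG on either strand, the letters that ETS-family factors such as ERG are known to bind. The windows are chr2:151910957-151911206, chr3:137340828-137341077 and chr11:49609429-49609678, all on the plus strand.
Angpt4: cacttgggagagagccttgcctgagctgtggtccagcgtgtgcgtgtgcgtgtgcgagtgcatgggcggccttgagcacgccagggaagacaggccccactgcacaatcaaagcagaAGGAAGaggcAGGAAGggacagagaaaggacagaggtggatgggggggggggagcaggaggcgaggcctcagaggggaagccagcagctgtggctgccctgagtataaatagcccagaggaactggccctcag
Emcn: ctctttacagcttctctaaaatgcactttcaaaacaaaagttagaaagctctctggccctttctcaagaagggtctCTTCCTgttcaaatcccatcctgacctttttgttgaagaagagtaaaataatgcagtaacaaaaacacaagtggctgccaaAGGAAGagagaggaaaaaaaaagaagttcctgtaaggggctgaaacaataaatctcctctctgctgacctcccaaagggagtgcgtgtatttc
Flt4: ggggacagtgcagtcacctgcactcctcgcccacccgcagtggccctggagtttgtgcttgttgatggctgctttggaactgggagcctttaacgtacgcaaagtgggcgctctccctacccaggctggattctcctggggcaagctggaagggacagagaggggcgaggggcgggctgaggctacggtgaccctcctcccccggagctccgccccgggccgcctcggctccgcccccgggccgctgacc
Angpt4 held 2 such matches, starting 133 and 123 bases before the start, and Emcn held 2, at 174 and 93 bases. Flt4 held 0. Of 26 windows of the 39 genes, 10 (38.5%) held a match, against 39.2% of the 32851 windows of all genes, so the letters were about as frequent in these genes as in any. A match is a description of the letters and not a binding site.

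Each library held 57.5 M to 69.1 M counts. The osteoblast and osteocyte markers, among them Col1a1, Bglap, Sp7 and Dmp1, were abundant in every library, with a summed level of 168771 to 305416 CPM (counts scaled to a common library size with TMM factors). Endothelial markers were present in every library. The libraries isotype 3 and isotype 4 differed from the remaining 6. Their deviations from the median library followed GC content, at a Spearman correlation of 0.650 and 0.640 across genes, against -0.371 to -0.0282 elsewhere, and mitochondrially encoded messages took 0.817% and 0.835% of their counts against 1.99% to 2.74%. Most results are therefore given both with all 8 libraries and with isotype 2 and 5 only. Skeletal muscle markers also differed between libraries. Summed over 12 genes they stood at 46.8, 82.7, 13.6 and 17.9 CPM under isotype, against 9.26 to 9.84 CPM under anti-CSF1R. The high sums were those of isotype 2 and 3, and isotype 2 is kept in the fit with isotype 2 and 5 only. Of the 12, Myh4 had no count in any anti-CSF1R library, but it also had none in isotype 2, 4 and 5, and 5 counts in isotype 3. The part of muscle tissue in the results was not tested beyond a fit with the muscle score as a covariate, in which 0 of all 17028 genes tested passed, and so 0 of the 39 (edgeR; 4 of them had an unadjusted p under 0.05, and 36 had a log2 fold change above 0).

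The levels of the 39 genes, per kilobase of the longest transcript, spanned from 0.0956 to 70.9 CPM per kb (mean of 8 libraries). Plvap, the diaphragm protein of fenestrated capillaries and sinusoids, was the highest at 70.9. Eng (endoglin, a TGF-beta co-receptor) stood at 55.2, Egfl7 (a secreted vessel matrix protein) at 50.9, Pecam1 (CD31) at 48.1, Aplnr (the apelin receptor) at 47.4 and Cdh5 (VE-cadherin) at 44.5 CPM per kb. Neighbours in this order overlapped in their ranges over libraries, while the lowest value of Plvap (54.3) was above the highest of Cdh5 (52.4). Vegfa, at 29.7 CPM per kb, was the highest of the VEGF and angiopoietin ligands. Angpt2 followed at 12.1 and Vegfb at 9.01 CPM per kb. The lowest were Vegfc (1.92), Mmrn1 (0.447) and Prox1 (0.0956 CPM per kb). Of the 39 genes, 6 stood above 40, 14 from 10 to 40 and 19 under 10 CPM per kb.

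**Figure D1:**
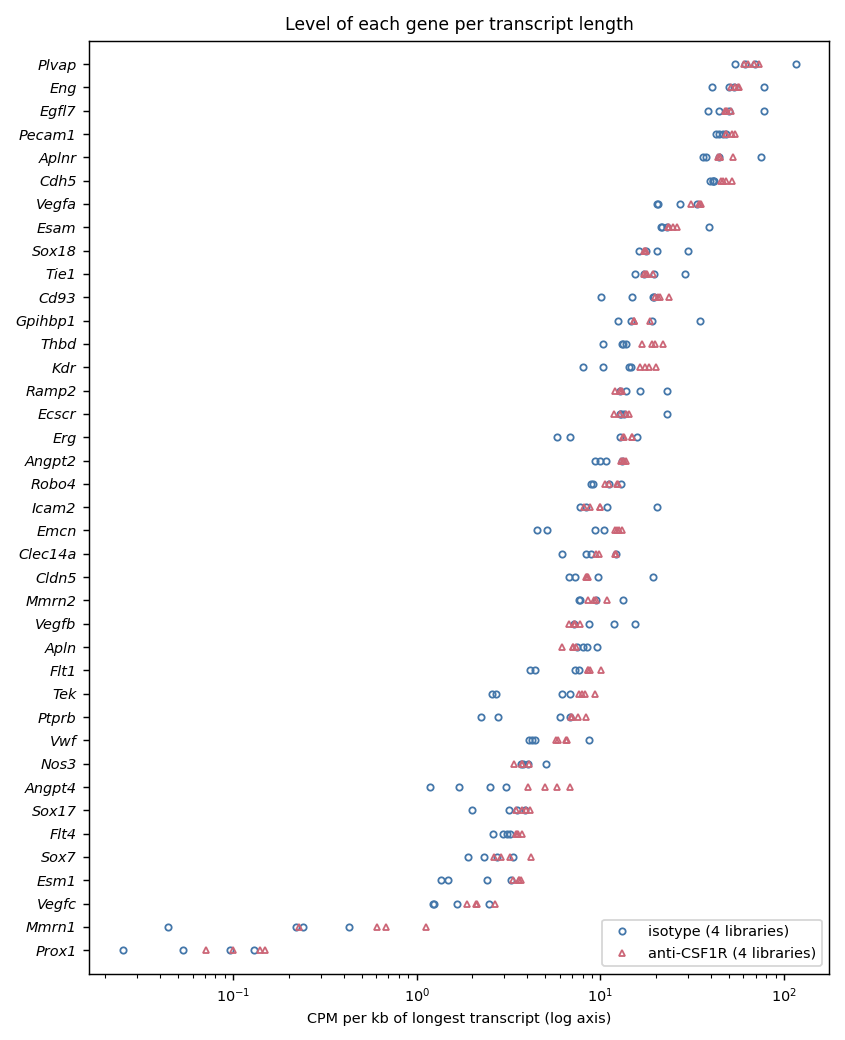
Level of each of the 39 genes in CPM per kb of longest transcript (horizontal log axis), with circles for the 4 isotype and triangles for the 4 anti-CSF1R libraries. Plvap is highest and Prox1 lowest, and the isotype circles are spread more widely than the triangles.

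None of the 39 vessel genes fell, whereas most macrophage and osteoclast markers did. Of the 39 genes, all of which passed the filter on low counts, 0 rose and 0 fell on all 8 libraries (edgeR, adjusted p under 0.05; 10 had an unadjusted p under 0.05; DESeq2 called 2 higher, Angpt4 and Thbd, beside 0.592% of all its genes, and limma-voom 0, beside 0.0529%). Over all 17028 genes tested with edgeR, 0.846% passed, 0.0235% higher and 0.822% lower. With isotype 2 and 5 only, 5 of the 39 (12.8%) rose and 0 fell, while 0.679% of all 17538 genes tested rose and 2.38% fell, 3.06% in all (edgeR). The 5 were Angpt4, Vwf, Thbd, Emcn and Flt4. With all libraries corrected by an offset for GC content and transcript length, 2 rose, Angpt4 and Thbd, against 0.517% of all genes. The summed level of the macrophage markers, in contrast, was 527 to 982 CPM under isotype, against 178 to 231 CPM under anti-CSF1R (7 of 10 genes fell on all libraries), and that of the osteoclast markers was 5796 to 13609 against 2188 to 2959 CPM (7 of 10 fell).

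The median log2 fold change (anti-CSF1R minus isotype) of the 39 genes was 0.24 on all libraries, beside 0.03 over all genes tested. It was 0.23 with isotype 2 and 5 only, beside 0.0028. Single genes were less steady than the median. On all libraries 23 of 39 had a log2 fold change above 0, and with isotype 2 and 5 only 34 had, since 12 genes went from below to above 0 and 1, Erg, from above to below. With library sizes alone in place of TMM factors the median of all genes moved to 0.19 and that of the 39 genes to 0.40. The summed level of the 39 genes was 1885, 2394, 1843 and 1964 CPM under isotype, against 2265, 2186, 2182 and 2459 CPM under anti-CSF1R. The groups overlap through isotype 3, whose sum is second to that of anti-CSF1R 10.

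**Figure D2:**
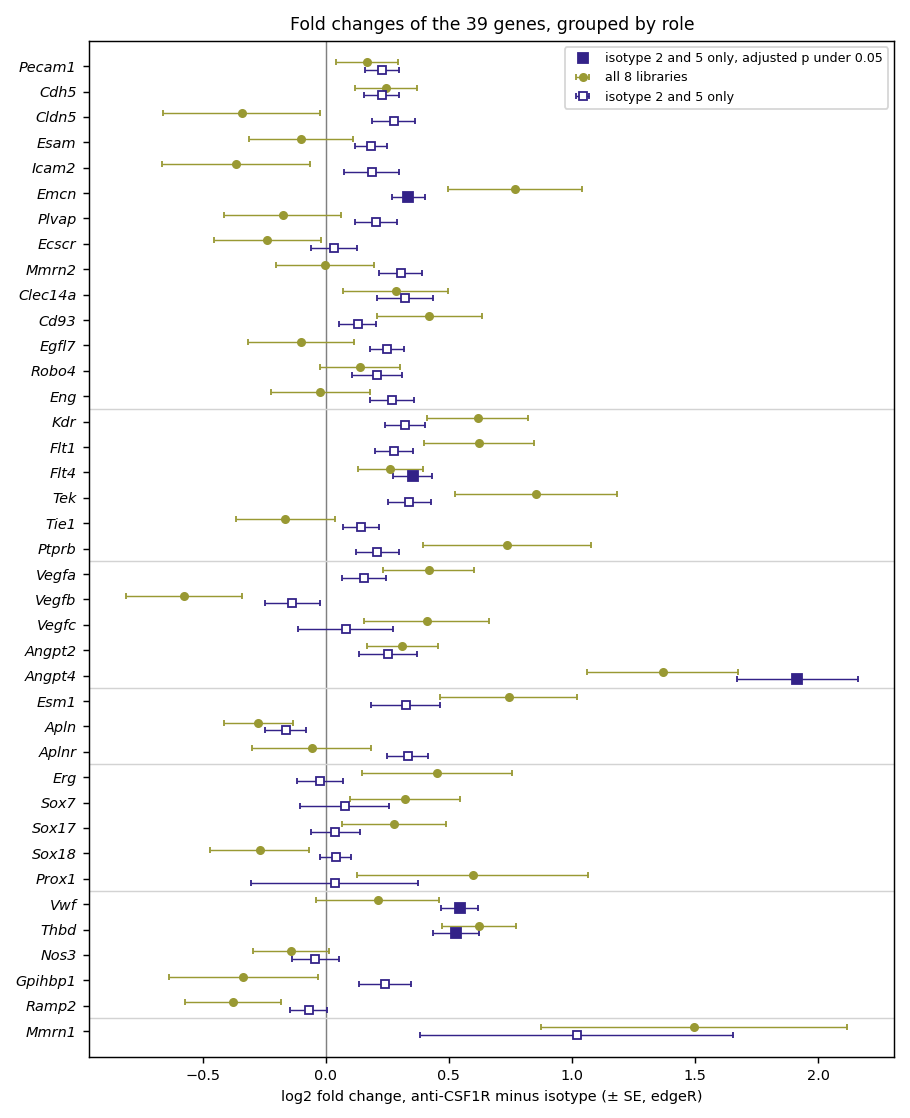
Log2 fold change (anti-CSF1R minus isotype, horizontal axis) with its standard error for each of the 39 genes, grouped by role, with circles for all 8 libraries and squares for isotype 2 and 5 only (filled where the adjusted p is under 0.05). Of the squares, 34 lie above 0 and 5 below it, with Angpt4 farthest out at 1.92 and Mmrn1 next at 1.02 with a wide error, followed by Vwf (0.54) and Thbd (0.53).

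The isotype libraries were spread more widely than the anti-CSF1R libraries. The coefficient of variation of the 39 genes had a median of 31.3% in the isotype group and 7.66% in the anti-CSF1R group, and over all genes tested it was 32.5% and 7.67%. In 12 of the 39 genes every anti-CSF1R library stood above every isotype library, a share of 30.8% beside 6.61% of all genes tested. In 1, Apln, every anti-CSF1R library stood below (8.34% of all genes). Against isotype 2 and 5 alone the count above was 21 of 39, or 53.8%, beside 11.3%, and the count below was 1, beside 12.9%. Within the anti-CSF1R group, library 10 was the highest in 27 of the 39 genes. That library also had the lowest osteoclast and macrophage sums (2188 and 178 CPM, against 2846 to 2959 and 208 to 231 CPM in the other 3), a co-occurrence whose part in the results was not tested.

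Among the ligands, Angpt4 had the largest difference that passed. Angiopoietin 4 is a secreted ligand of TIE2. It stood at 3.96, 7.10, 5.81 and 2.74 CPM in the isotype libraries against 9.38, 13.6, 11.7 and 15.8 CPM in anti-CSF1R 7, 8, 9 and 10. All anti-CSF1R libraries were above all isotype libraries, and isotype 3 and 4 were the highest of the controls. With isotype 2 and 5 only it rose 3.77-fold, a log2 fold change of 1.92 ± 0.25 (SE; edgeR adjusted p = 0.00676). On all libraries the log2 fold change was 1.37 ± 0.31 and did not pass (edgeR adjusted p = 0.0873; range over 18 alternatives 0.00295 to 0.278). The offset for GC and length gave 1.75 and passed (edgeR adjusted p = 0.00335). Without isotype 5 the value was 1.67 and not called (edgeR adjusted p = 0.0521). Such a fit, here and below, has 1 isotype library, which is assumed to vary like the anti-CSF1R libraries. The counts of this gene, 194 to 1032 per library, were well above the detection floor of 3 counts.

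Angpt2, the angiopoietin that sprouting endothelium stores and releases, stood at 46.6, 35.6, 38.0 and 33.2 CPM under isotype, against 47.3, 49.3, 45.9 and 47.9 CPM under anti-CSF1R. Isotype 2 lay within the anti-CSF1R values and the other 3 below them (log2 fold change 0.31 ± 0.15, edgeR adjusted p = 0.278, and 0.25 ± 0.12 with an edgeR adjusted p = 0.369 against isotype 2 and 5). Vegfa, the main growth factor of blood vessels, stood at 94.2, 69.9, 71.2 and 116 CPM under isotype, against 119, 108, 121 and 122 CPM under anti-CSF1R. Isotype 3 and 4 made up the low end, and isotype 5 reached the anti-CSF1R range. Its log2 fold change was 0.42 ± 0.18 on all libraries and 0.16 ± 0.09 with isotype 2 and 5 only, and it passed in neither fit (edgeR adjusted p = 0.278 and 0.481). Vegfb, a ligand of FLT1, stood at 9.21, 19.7, 15.3 and 11.1 CPM under isotype, against 8.65 to 9.92 CPM under anti-CSF1R. Its high values were again isotype 3 and 4, and the log2 fold change went from -0.58 ± 0.24 to -0.14 ± 0.11 without them (edgeR adjusted p = 0.278 and 0.646). Vegfc, the lymphatic growth factor that binds FLT4, stood at 4.07, 3.04, 2.99 and 6.06 CPM under isotype, against 4.62 to 6.52 CPM under anti-CSF1R. Its log2 fold change went from 0.41 ± 0.26 on all libraries to 0.08 ± 0.19 without isotype 3 and 4 (edgeR adjusted p = 0.315 and 0.900). The groups overlapped in Vegfa, Vegfb, Vegfc and Angpt2.

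The receptors for VEGF and angiopoietins, counted together with the TIE2 phosphatase gene Ptprb, lay above isotype in every anti-CSF1R library, except Tie1. Their median log2 fold change was 0.62 on all libraries and 0.30 with isotype 2 and 5 only, over 6 genes. Of the 6, 0 and 1 rose, beside 0.0235% and 0.679% of all genes tested (edgeR). Kdr, VEGF receptor 2, stood at 84.8, 47.9, 61.0 and 87.3 CPM under isotype, against 104, 110, 97.9 and 119 CPM under anti-CSF1R. The groups did not overlap, and the gap to isotype 2 and 5 was smaller than that to 3 and 4. Its log2 fold change was 0.62 ± 0.21 on all libraries and 0.32 ± 0.08 with isotype 2 and 5 only, short of the threshold in both (edgeR adjusted p = 0.255 and 0.0661). Flt1, VEGF receptor 1, which also has a soluble decoy form, stood at 49.9, 28.6, 30.3 and 52.6 CPM under isotype, against 59.1, 60.7, 59.4 and 69.6 CPM under anti-CSF1R. Its isotype libraries had the same order as for Kdr (0.62 ± 0.22 and 0.28 ± 0.08, edgeR adjusted p = 0.275 and 0.0987).

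Flt4, VEGF receptor 3, is kept by lymphatic endothelium and by some fenestrated and sprouting blood vessels. It stood at 16.3, 20.2, 19.3 and 18.5 CPM under isotype, against 21.6, 23.4, 22.0 and 22.3 CPM under anti-CSF1R. The groups were close but did not overlap. It rose 1.28-fold with isotype 2 and 5 only (log2 fold change 0.35 ± 0.08, edgeR adjusted p = 0.0438) and did not pass on all libraries (0.26 ± 0.13, edgeR adjusted p = 0.285; range over 18 alternatives 0.0438 to 0.860). The call with isotype 2 and 5 ended without isotype 2, with 1 isotype library left (edgeR adjusted p = 0.193), without anti-CSF1R 7, 8, 9 or 10 (0.0687, 0.128, 0.102 and 0.0743), and with limma-voom in place of edgeR (adjusted p = 0.0556). Tek, the gene of TIE2, stood at 31.9, 11.9, 12.6 and 28.9 CPM under isotype, against 38.4, 36.9, 35.4 and 43.5 CPM under anti-CSF1R. Its fold change was smaller without isotype 3 and 4, going from 0.85 ± 0.33 to 0.34 ± 0.09 on the log2 scale (edgeR adjusted p = 0.278 and 0.0752). Ptprb, the phosphatase that holds TIE2 in check, behaved alike, at 81.4, 33.1, 26.7 and 71.9 against 82.2 to 98.8 CPM (0.74 ± 0.34 and 0.21 ± 0.09, edgeR adjusted p = 0.278 and 0.286). Tie1 went the other way in isotype 3 and 4, at 65.0, 122, 82.7 and 73.5 CPM under isotype against 72.7 to 82.2 CPM under anti-CSF1R, and its log2 fold change turned from -0.16 ± 0.20 to 0.14 ± 0.07 without them (edgeR adjusted p = 0.555 and 0.405).

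**Figure D3:**
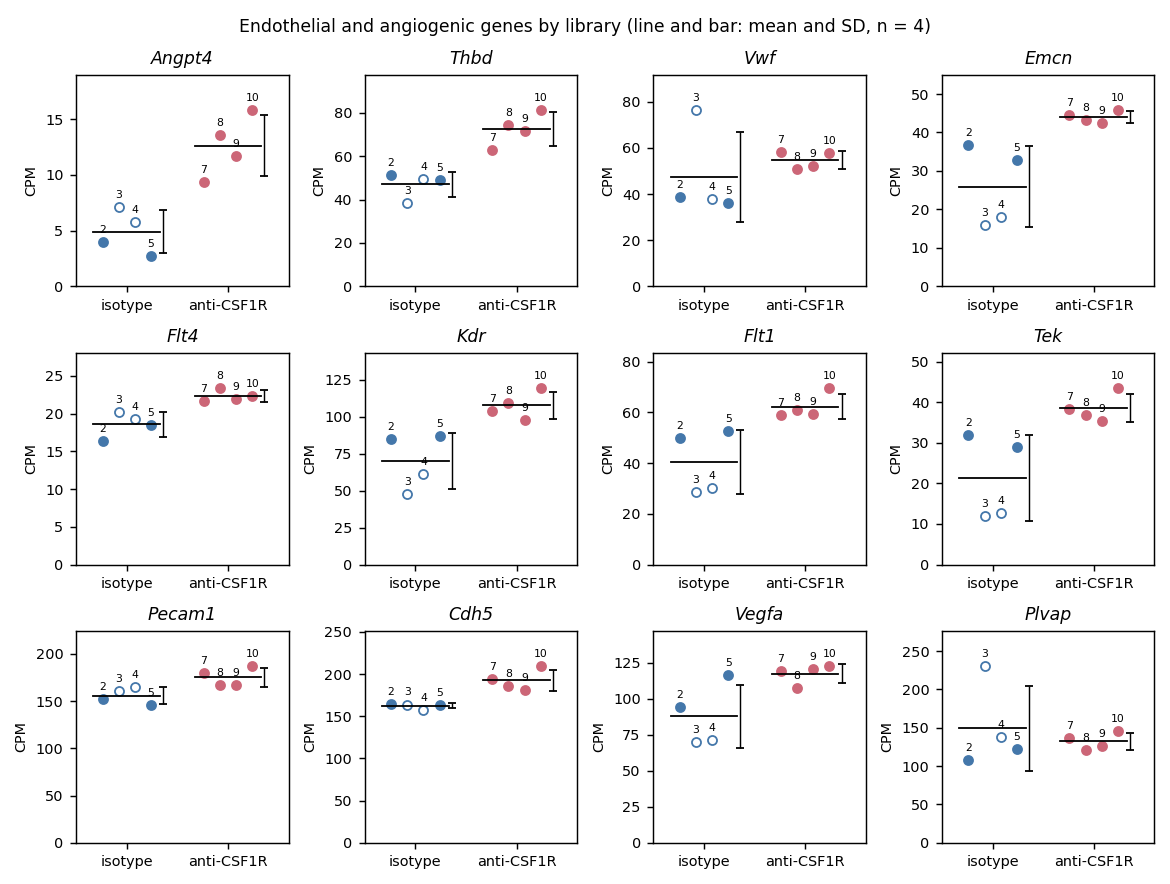
CPM (vertical axis) of 12 of the genes in each library, numbered as in the labels, with open circles for isotype 3 and 4. Black lines and bars are the mean and SD of 4 libraries. Angpt4 and Thbd are higher in every anti-CSF1R library, Cdh5 differs little between the 4 isotype libraries, and isotype 3 and 4 are low for Emcn, Kdr, Flt1 and Tek, while isotype 3 is high for Vwf and Plvap.

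The general endothelial markers Cdh5 and Pecam1 stood at similar levels, and both were slightly higher in every anti-CSF1R library. Cdh5, VE-cadherin, stood at 165, 164, 158 and 164 CPM under isotype, against 194, 186, 181 and 209 CPM under anti-CSF1R. It differed little among the isotype libraries, isotype 3 and 4 included. The anti-CSF1R libraries were all higher, yet the fold change of 1.18 (log2 0.24 ± 0.12) did not pass (edgeR adjusted p = 0.287, or 0.145 against isotype 2 and 5). Pecam1, the adhesion molecule CD31 that platelets and leukocytes also carry, stood at 152, 160, 165 and 146 CPM under isotype, against 179.5, 167, 167 and 187 CPM under anti-CSF1R. It was likewise higher in 4 of 4 anti-CSF1R libraries without passing (0.17 ± 0.13 on the log2 scale, edgeR adjusted p = 0.364, or 0.124 against isotype 2 and 5). Emcn, endomucin, a sialomucin of venous and bone capillary endothelium, stood at 36.8, 15.8, 17.9 and 32.9 CPM under isotype, against 44.6, 43.2, 42.4 and 45.9 CPM under anti-CSF1R. Isotype 3 and 4 were lowest. Without them it rose 1.26-fold (log2 fold change 0.34 ± 0.07, edgeR adjusted p = 0.0269). On all libraries it was 0.77 ± 0.27, with a larger error and no call (edgeR adjusted p = 0.274; range over 18 alternatives 0.0269 to 0.860). The call with isotype 2 and 5 ended without isotype 5, with 1 isotype library left (edgeR adjusted p = 0.125), without anti-CSF1R 7, 8, 9 or 10 (0.0605, 0.0771, 0.0627 and 0.0530) and under the added offset for GC and length (0.0666).

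Of the 14 junction and surface genes, 6 had a log2 fold change above 0 on all libraries and 14 with isotype 2 and 5 only, with medians of -0.01 and 0.23. Emcn was the gene that passed, and it did so only in the second of these fits. The other genes ranged from -0.37 (Icam2) to 0.42 (Cd93) on all libraries. Without isotype 3 and 4 they ranged from 0.03 (Ecscr) to 0.32 (Clec14a). Cldn5, the tight junction claudin, shows the pattern of the GC-rich members: it measured 9.54 and 10.3 CPM in isotype 2 and 5, 27.4 and 13.7 CPM in isotype 3 and 4, and 11.9 to 12.2 CPM in all anti-CSF1R libraries. Plvap stood at 108, 230, 138 and 122 CPM under isotype, against 121 to 146 CPM under anti-CSF1R. Eng, Egfl7, Esam (a junction adhesion molecule), Mmrn2 (multimerin 2, an endothelial matrix protein), Ecscr and Icam2 were also highest in isotype 3. Eng ran from 139 to 267 CPM under isotype, against 176 to 196 CPM under anti-CSF1R, and Egfl7 from 71.7 to 145 against 89.0 to 96.5 CPM. Esam ran from 39.9 to 72.4 against 43.4 to 48.8 CPM, and Mmrn2 from 30.3 to 52.4 against 34.2 to 43.1 CPM. In each of these 4 the anti-CSF1R range lay inside the isotype range. The same held for Icam2 (9.95 to 26.1 and 10.4 to 12.8 CPM), while Ecscr ran from 14.2 to 25.8 and 13.2 to 16.0 CPM. Cd93, a C-type lectin-like receptor of endothelium, was low in isotype 3 and 4 (67.2 and 98.7 CPM, with 131 and 129 CPM in 2 and 5) and ran from 133 to 158 CPM under anti-CSF1R. Its relative Clec14a ran from 28.2 to 55.6 CPM and 43.2 to 55.6 CPM. Robo4, a guidance receptor of endothelium, followed at 43.9 to 64.3 CPM under isotype, against 52.2 to 61.5 CPM under anti-CSF1R.

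Of the genes of sprouting and apelin signalling, 0 of 3 passed in either fit (edgeR; 1 with an unadjusted p under 0.05 on all libraries and 2 with isotype 2 and 5 only). Esm1, endocan, a secreted proteoglycan of VEGF-stimulated tip cells, stood at 5.04, 2.83, 3.10 and 6.84 CPM under isotype, against 7.03, 7.57, 7.70 and 7.56 CPM under anti-CSF1R. The anti-CSF1R libraries were all higher, by a small step over isotype 5 (log2 fold change 0.74 ± 0.28, edgeR adjusted p = 0.278, and 0.32 ± 0.14 with an adjusted p = 0.309 against isotype 2 and 5). Apln, the tip cell peptide apelin, stood at 23.4, 26.5, 30.2 and 25.2 CPM under isotype, against 23.2, 22.3, 19.4 and 22.2 CPM under anti-CSF1R, lower in 4 of 4 by a narrow margin (-0.27 ± 0.14, edgeR adjusted p = 0.288, and -0.16 ± 0.08 with an adjusted p = 0.418 against isotype 2 and 5). Its receptor Aplnr stood at 138, 279, 164 and 134 CPM under isotype, against 162 to 195 CPM under anti-CSF1R. The fold change of Aplnr turned from -0.06 ± 0.24 to 0.33 ± 0.08 on the log2 scale without isotype 3 and 4 (edgeR adjusted p = 0.871 and 0.0667).

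Endothelial transcription factors had the smallest median log2 fold change of the role groups with isotype 2 and 5 only, 0.04 over 5 genes, and 0.32 on all libraries. Erg, the ETS factor that maintains endothelial identity, stood at 41.4, 18.9, 22.1 and 51.5 CPM under isotype, against 43.0, 43.8, 48.3 and 48.1 CPM under anti-CSF1R. The anti-CSF1R values lay between those of isotype 2 and 5, and the log2 fold change went from 0.45 ± 0.30 to -0.02 ± 0.09 (edgeR adjusted p = 0.331 and 0.944). Sox7, a SoxF factor of vessel specification, stood at 9.05, 6.26, 7.64 and 11.1 CPM under isotype, against 8.71 to 13.8 CPM under anti-CSF1R, with overlap (0.32 ± 0.22, edgeR adjusted p = 0.339, and 0.08 ± 0.18 with an adjusted p = 0.898 against isotype 2 and 5). Its relatives Sox17 and Sox18 had log2 fold changes of 0.04 ± 0.10 and 0.04 ± 0.06 in that fit. Sox17 ran from 6.51 to 12.7 CPM under isotype and 11.2 to 13.4 CPM under anti-CSF1R, and Sox18 from 26.4 to 48.7 and 27.8 to 28.8 CPM. Of the 5 factors, 0 passed in it or on all libraries (edgeR; 0 with an unadjusted p under 0.05).

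Genes of the vessel lumen and of clotting held 2 of the 5 rises. Thbd, thrombomodulin, the thrombin receptor that turns clotting off at the vessel wall and that monocytes also carry, stood at 51.2, 38.5, 49.4 and 49.0 CPM under isotype, against 62.7, 74.3, 71.4 and 81.3 CPM under anti-CSF1R. The groups did not overlap, and isotype 3 was the lowest library while the other 3 isotype libraries were close together. It rose 1.44-fold with isotype 2 and 5 only (log2 fold change 0.53 ± 0.09, edgeR adjusted p = 0.0172) and also under the offset for GC and length (0.73 at an edgeR adjusted p = 0.0281). On all libraries without the offset it was 0.62 ± 0.15 and not called (edgeR adjusted p = 0.113; range over 18 alternatives 0.00755 to 0.715). The call with isotype 2 and 5 ended without isotype 2 or 5, with 1 isotype library left (edgeR adjusted p = 0.0842 and 0.108), and without anti-CSF1R 8 or 9 (0.0646 and 0.0658). Vwf, von Willebrand factor, is stored by endothelium and megakaryocytes. It stood at 38.8, 76.5, 37.7 and 36.1 CPM under isotype, against 58.3, 50.7, 52.1 and 57.7 CPM under anti-CSF1R. Isotype 3 alone lay above the anti-CSF1R values, and the other 3 isotype libraries lay below all of them. Vwf rose 1.46-fold with isotype 2 and 5 only (0.54 ± 0.08, edgeR adjusted p = 0.00455), but its log2 fold change on all libraries was 0.21 ± 0.25 (edgeR adjusted p = 0.546; range over 18 alternatives 0.00455 to 0.841), and 0.22 with the offset (edgeR adjusted p = 0.469). Among further alternatives that keep both isotype 2 and 5, the call held in 8 of 8. Megakaryocyte markers, which would share Vwf, were at 34.7, 94.8, 55.8 and 58.6 CPM summed over 11 genes under isotype, against 58.6, 101, 61.7 and 27.9 CPM under anti-CSF1R, and 0 of the 11 had no count in either group. Anti-CSF1R 10 had the lowest of these sums and the second highest Vwf of its group, while isotype 3 had the highest of both in its group. The part of megakaryocytes in the level of Vwf was not tested.

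Ramp2, the adrenomedullin co-receptor subunit, stood at 18.8, 33.9, 24.2 and 20.4 CPM under isotype, against 17.8 to 19.4 CPM under anti-CSF1R (a log2 difference of -0.38 ± 0.19 at an edgeR adjusted p = 0.289, and -0.07 ± 0.07 with an adjusted p = 0.746 against isotype 2 and 5). Its difference, like that of Vegfb, was smaller without isotype 3 and 4. Nos3, endothelial nitric oxide synthase, differed little, at 15.2 to 20.8 CPM under isotype, against 14.0 to 17.0 CPM under anti-CSF1R. Gpihbp1, the capillary anchor of lipoprotein lipase, stood at 24.3, 57.6, 31.4 and 20.6 CPM under isotype, against 25.1 to 30.9 CPM under anti-CSF1R, and passed in neither fit (edgeR adjusted p = 0.434 and 0.324).

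Some lymphatic transcripts were scarce, among them Prox1, Mmrn1, Lyve1 and Ccl21a, and others were not. In a list of other lymphatic genes, Reln, Tbx1 and Nts were also low, at 1.76, 0.851 and 0.151 CPM (mean of 8 libraries). Pdpn, Fxyd6 and Foxc2 of that list stood higher, at 66.03, 25.3 and 15.4 CPM. Prox1, the master factor of lymphatic identity, stood at 1.02, 0.420, 0.198 and 0.763 CPM under isotype, against 0.793, 1.11, 1.18 and 0.561 CPM under anti-CSF1R, with 12 counts in the lowest library. The groups overlapped (log2 fold change 0.60 ± 0.47, edgeR adjusted p = 0.378, and 0.04 ± 0.34 with an adjusted p = 0.977 against isotype 2 and 5). Ccl21a, the chemokine of lymphatic capillaries, reached at most 4 counts in a library, and Lyve1 (a hyaluronan receptor shared with macrophages) 50 counts. Mmrn1, multimerin 1, is made by lymphatic endothelium and by megakaryocytes. It stood at 0.990, 1.07, 0.198 and 1.92 CPM under isotype, against 2.72, 5.02, 3.06 and 1.02 CPM under anti-CSF1R. Anti-CSF1R 8 was highest and 10 lowest of its group, the same order as in the megakaryocyte sum, and 10 overlapped the isotype values. In the isotype group the orders differed, with Mmrn1 highest in isotype 5 and the megakaryocyte sum highest in isotype 3. The log2 fold change of Mmrn1 was 1.495 ± 0.62 (edgeR adjusted p = 0.278), or 1.02 ± 0.63 against isotype 2 and 5 (edgeR adjusted p = 0.553).

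The genes that passed can be set beside the general endothelial markers, although bulk RNA does not show which cells made each transcript. As a share of the mean of Pecam1 and Cdh5 in the same library, a description chosen after the values were seen, Angpt4 took 1.77% to 4.38% with isotype and 5.02% to 8.00% with anti-CSF1R. Thbd took 23.7% to 32.3% and 33.6% to 42.1%. Neither gene overlapped between the groups on this scale. Emcn did overlap, at 9.77% to 23.2% against 23.2% to 24.5%, and with isotype 2 and 5 only its range was 21.2% to 23.2%. Flt4 overlapped as well, at 10.3% to 12.5% against 11.2% to 13.3%. Vwf took 23.3% to 24.5% in isotype 2 and 5, with 28.8% to 31.2% under anti-CSF1R and isotype 3 at 47.2%.

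Across the 39 genes, the difference between isotype 3 and 4 and isotype 2 and 5 followed the GC content of the transcript. The Spearman correlation was 0.785 and Pearson's r 0.777 over 39 genes measured in the same 4 libraries, and the Spearman correlation was 0.688 over 16205 genes tested. All 12 genes with a GC content of at least 55% were higher in isotype 3 and 4, and 10 of 11 genes under 50% were lower. The exception was Clec14a. Of the 16 genes between, 9 were higher. The same GC content had a correlation of -0.252 (Spearman) and -0.09 (Pearson) with the difference between anti-CSF1R and isotype 2 and 5. Angpt4, at 56.3% GC, was among those high in isotype 3 and 4, and its fold change was smaller with those libraries than without. Emcn (40.7%), Tek (47.1%) and Ptprb (47.6%) were low there, and their fold changes were larger with those libraries. Thbd, at 51.4% GC, differed by -0.20 on the log2 scale (isotype 3 and 4 minus 2 and 5).

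**Figure D4:**
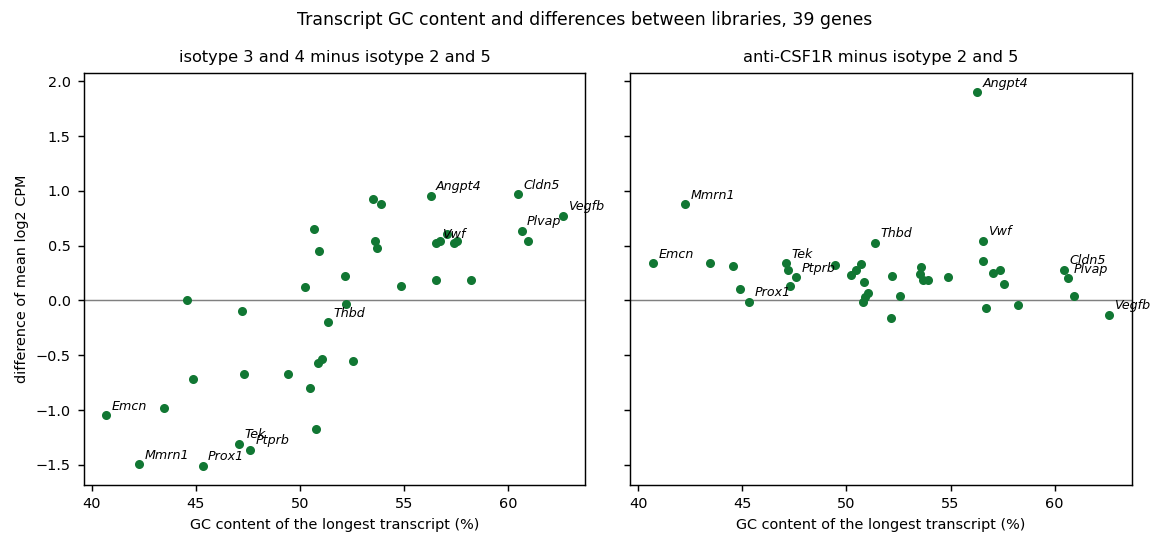
Difference of mean log2 CPM (vertical axis) against the GC content of the longest transcript (horizontal axis, percent) for the 39 genes: isotype 3 and 4 minus isotype 2 and 5 (left), and anti-CSF1R minus isotype 2 and 5 (right). The left panel slopes upward from Emcn to Cldn5, and the right panel is nearly level with Angpt4 alone above 1.5.

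Other genes of the same systems were counted from lists. Of 12 further genes of the VEGF and angiopoietin systems, 0 passed on all libraries (edgeR; 2 with an unadjusted p under 0.05). Against isotype 2 and 5, 1 rose, beside 0.679% of all genes tested (edgeR; 4 with an unadjusted p under 0.05). That gene was Angpt1, the main activating ligand of TIE2, which stood at 15.9, 8.40, 3.96 and 12.1 CPM under isotype, against 19.2, 23.8, 23.6 and 23.4 CPM under anti-CSF1R. The groups did not overlap (log2 fold change 0.69 ± 0.13 against isotype 2 and 5, edgeR adjusted p = 0.0236, and 1.16 ± 0.36 on all libraries, edgeR adjusted p = 0.225). The list's median was 0.22 on all libraries and 0.07 with isotype 2 and 5 only. Of 12 hypoxia response genes, 0 passed in either fit (edgeR; 2 and 3 with an unadjusted p under 0.05), with medians of -0.07 and -0.08. The most abundant, Ldha (lactate dehydrogenase A), stood at 294, 774, 508 and 289.5 CPM under isotype, against 263 to 306 CPM under anti-CSF1R.

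Of 20 other pan-endothelial genes, 0 passed in either fit (edgeR; 1 and 7 with an unadjusted p under 0.05), and their median log2 fold change was 0.26 and 0.16. The most abundant was S1pr1, the sphingosine-1-phosphate receptor that steadies vessels, at 123 to 153 CPM under isotype, against 159 to 174 CPM under anti-CSF1R. Of 12 arterial and Notch genes 0 passed as well (edgeR; 0 and 1 with an unadjusted p under 0.05; medians 0.05 and 0.09), and the most abundant, Unc5b (a netrin receptor), stood at 363 to 662 CPM under isotype, against 402 to 441 CPM under anti-CSF1R. The venous and capillary list held the most calls of these lists, with medians of 0.33 and 0.39. On all libraries 1 of 10 tested genes was higher, beside 0.0235% of all genes tested (edgeR; 3 with an unadjusted p under 0.05). With isotype 2 and 5 only 4 were higher, beside 0.679% (edgeR; 7 with an unadjusted p under 0.05). Selp, P-selectin, a leukocyte adhesion molecule that platelets share, stood at 5.97, 15.8, 9.71 and 6.62 CPM under isotype, against 12.2 to 14.3 CPM under anti-CSF1R. It rose with isotype 2 and 5 only (1.05 ± 0.11, edgeR adjusted p = 0.00108) but isotype 3 lay above all anti-CSF1R libraries. Cd36, a fatty acid transporter of capillaries and adipocytes, stood at 35.6, 13.4, 7.96 and 31.5 against 45.3 to 51.9 CPM (0.53 ± 0.08, edgeR adjusted p = 0.00539). Sele (E-selectin), named after its values were seen, completes the 4, at 0.627 to 2.12 and 3.23 to 3.91 CPM (0.86 ± 0.17, edgeR adjusted p = 0.0257), with Fabp4, which also passed on all libraries, at 53.1 to 63.2 and 98.7 to 107 CPM. For Fabp4, a fatty acid carrier that adipocytes share, the log2 fold change on all libraries was 0.82 ± 0.12 (edgeR adjusted p = 0.0267). With isotype 2 and 5 only it was 0.73 ± 0.06 (edgeR adjusted p = 0.000465). The offset for GC and length ended the Fabp4 call (0.25, edgeR adjusted p = 0.461), while Sele passed under it (1.32, edgeR adjusted p = 0.0429). The offset used the longest transcript, 4231 bases for Fabp4, and the part of that length in the lost call was not tested. Of 6 other lymphatic genes tested, 0 passed on all libraries (edgeR; 2 with an unadjusted p under 0.05), and the most abundant, Pdpn (podoplanin, which osteocytes also make), stood at 58.5 to 98.0 CPM under isotype, against 48.9 to 59.3 CPM under anti-CSF1R.

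**Figure D5:**
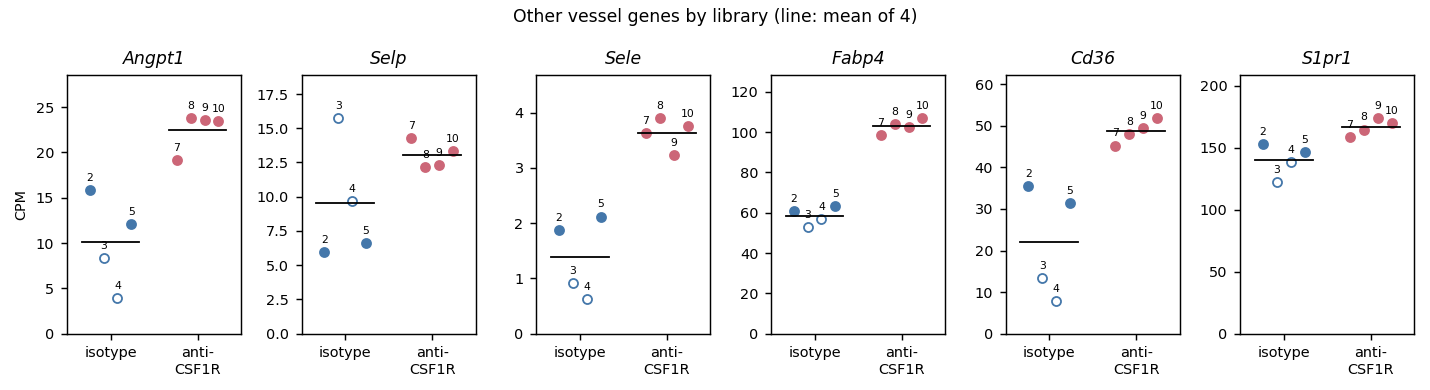
CPM (vertical axis) of 6 vessel genes outside the 39 in each library, numbered as in the labels, with open circles for isotype 3 and 4 and a line at the mean of 4. Angpt1, Sele, Fabp4 and Cd36 are higher in every anti-CSF1R library, S1pr1 by a small step, and Selp overlaps through isotype 3.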

How the data were processed

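The authors deposited 1 table of raw counts per gene symbol, with 1 column for each of the 8 libraries (4 isotype, 4 anti-CSF1R), and no column was pooled. Libraries were made with a stranded poly(A) kit from 1 µg of RNA and read as 101 bp pairs, per the labels' protocols. Per the submitters' processing notes, the tools were STAR 2.7.10b and featureCounts 1.6.3. Those notes list GRCm38 as well as GRCm39, so the build behind the counts is not settled and the promoter coordinates are those of the RefSeq table. The strand setting is not given in the sources used here. Of counts from 1 to 10, 82.8% to 84.7% were even, so read pairs appear mostly as 2 counts, and halved counts were tried.

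From these counts, genes kept by filterByExpr were tested with edgeR 4.0.16 (quasi-likelihood, TMM factors, Benjamini-Hochberg over all genes tested, threshold 0.05) in R 4.3.3, on all 8 libraries and with isotype 2 and 5 only. DESeq2 1.42.0, limma 3.58.1 (voom), other scalings and filters, an offset for GC and transcript length, a muscle covariate and leaving out each library were alternatives, and further ones with isotype 2 and 5 only were added after the data were seen. Scripts were tested on simulated data. A depth of 57.5 M to 69.1 M makes 3 counts equal to 0.0434 to 0.0522 CPM, for counting error only. The 39 genes and the lists were chosen with earlier results of these data known. Named in full were genes past the threshold in either fit, the 2 with the smallest p of each role, all VEGF and angiopoietin ligands and receptors, Prox1 and Mmrn1. Of other lists, up to 3 genes that passed were named, or else the most abundant. An erythroid list (8 genes, 0 passed by edgeR, 0 with an unadjusted p under 0.05) summed to 377 to 1119 CPM with isotype and 288 to 848 CPM with anti-CSF1R.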

Additional observations from a re-analysis of the deposited data

Results flagged for a closer look

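Each of the 39 genes was looked at in each group of 4 libraries for 1 value far from the other 3, by Dixon's test. Of 78 groups, 6 passed, where chance flags about 1 in 20. In isotype 3, Vwf stood at 76.5 CPM against 36.1 to 38.8 CPM in the other isotype libraries, Esam at 72.4 against 39.9 to 43.2 CPM, and Ecscr at 25.8 against 14.2 to 14.9 CPM. In anti-CSF1R 10, Aplnr stood at 195 CPM against 162 to 166 CPM in the other anti-CSF1R libraries, Flt1 at 69.6 against 59.1 to 60.7 CPM, and Gpihbp1 at 30.9 CPM against 25.1 CPM in all 3 others. The 6 values fell in 2 libraries, and all were high ones.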

How the results depend on the processing

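Over all genes, 144 were called on all 8 libraries with edgeR. The count was 536 with isotype 2 and 5 only, 734 with DESeq2, 459 with the GC and length offset and 0 with the muscle score as a covariate (957 with an unadjusted p under 0.05). Leaving out 1 library gave 0 to 260 (0 without anti-CSF1R 7 or 8, 4 without 9, 14 without 10, 35 without isotype 4, 106 without isotype 3, 234 without isotype 5, 260 without isotype 2). The cause was not tested. Of the 39 genes, 0 were higher on all libraries and without any 1 library, 5 with isotype 2 and 5 only, 2 with DESeq2 and 2 with the offset. None was lower in any of the 18 alternatives. With isotype 2 and 5 only, the 5 became 11 with DESeq2 (beside 1.56% of all genes higher), 4 with limma-voom (0.53%) and 2 to 4 without 1 library (0.218% to 0.746%), in alternatives added after the data were seen. Leaving out isotype 2 or 5 there leaves 1 isotype library, assumed to vary like the others. The median log2 fold change of the 39 genes was 0.24 and moved to 0.13 without isotype 4 and 0.40 with library size alone, and 23 genes had 1 direction in every fit. Counts were lowest for Prox1 and Mmrn1, with 12 each in their lowest library. No paired analysis was possible because the groups share no replicate numbers.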

Other observations

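Pericyte and smooth muscle genes, which mark the cells wrapped around small vessels, were counted as a list of 10. On all libraries 0 passed (edgeR, with 1 at an unadjusted p under 0.05), and with isotype 2 and 5 only 3 rose, beside 0.679% of all genes tested, with 6 of 10 above 0 and a median log2 fold change of 0.18. Those 3, named after their values were seen, were Pdgfrb (the PDGF-B receptor, 0.45, edgeR adjusted p = 0.0113), Abcc9 (a potassium channel subunit, 0.36, edgeR adjusted p = 0.0174) and Notch3 (a mural cell receptor, 0.29, edgeR adjusted p = 0.0445). Rgs5 (-0.13), Cspg4 (-0.09), Higd1b (-0.06) and Kcnj8 (-0.04), also pericyte markers, had log2 fold changes below 0 in that fit and did not pass. The list summed to 914 to 1152 CPM with isotype and 1149 to 1212 CPM with anti-CSF1R. None of the 10 was at 0 counts in either group.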
